A study of Gallus gallus with 8 samples.

Results

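Hearts of chicken embryos were compared between 2 breeds named for places on the Tibetan plateau, Linzhi Tibetan and Lhasa White. The comparison uses 4 of the 8 libraries of the series, 2 of Linzhi Tibetan and 2 of Lhasa White, and it was made gene by gene on 11556 of the 15873 genes of the deposited table, those with at least 1 RPKM (reads scaled to gene length and sequencing depth) in at least 2 of the 8 libraries. All libraries hold mRNA of embryonic heart tissue taken on day 16 of incubation. The other 4 libraries, 2 of Chahua and 2 of White Leghorn (spelled "White leghom" in the labels), entered the fit so that all breeds share an estimate of the spread, and their values are given below as a reference under the name of lowland breeds (White Leghorn is a commercial egg layer, and Chahua comes from southern China). The labels name no strain beyond the breed, no treatment, no sex and no altitude or oxygen level of incubation. Whether each library is a separate embryo, a pool or a repeat is not stated, so the spread behind the p-values is that of these libraries and may be technical. The series was made beside a search of genome sequences for selected genes in highland chickens, and RNA was measured there to find genes expressed differently between populations.

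At this age the chambers, valves and great vessels of the chicken heart are formed, and the muscle grows by cell division under the low oxygen of the closed egg. Ventricular muscle carries troponin and myosin at very high levels, coronary vessels grow under vascular endothelial growth factors, and calcium moves in and out of the sarcoplasmic reticulum at each beat. Protein folding in the cell is served by chaperones of the Hsp70 and Hsp90 families with their J-domain partners, whose genes respond together to heat and to misfolded protein through the heat shock factors. Oxygen is read by the EGLN hydroxylases, which mark the hypoxia-inducible factors HIF1A and EPAS1 for degradation, and the factors in turn raise genes such as VEGFA and ADM.

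Fitted library sizes were 20343870 and 22157553 mapped reads for Linzhi Tibetan, and for Lhasa White 20121450 and 19055988. TNNT2, the cardiac troponin T, lay at 5502 to 8848 RPKM over all 8 libraries, so the label of heart is met in each. The Linzhi Tibetan pair correlated at a Pearson r of 0.975 on log2(RPKM + 1) over genes, and the Lhasa White pair at 0.952. Between the breeds r ran from 0.937 (Linzhi Tibetan 1 with Lhasa White 2) to 0.978 (Linzhi Tibetan 2 with Lhasa White 1). Libraries of a breed were thus not always closer to each other than to those of the other breed. The values of 728 genes differed by more than 1 on the log2 scale between the 2 Lhasa White libraries, against 395 genes within the Linzhi Tibetan pair, 913 within the Chahua pair and 149 within the White Leghorn pair.

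Each Lhasa White library held transcripts that the Linzhi Tibetan libraries lacked or held at low levels, and the highest of these were not the same in both. Lhasa White 1 had 14 genes at 20 RPKM or more that lay below 0.5 RPKM in each of the other 7 libraries, from 46.1 to 613 RPKM, and they took at least 0.17% of its mapped reads. Linzhi Tibetan 1 had 0 such genes and Linzhi Tibetan 2 had 1. F-KER, a feather keratin and the single one of the 14 with a symbol, lay at 300.7 RPKM in Lhasa White 1 and was listed at 0 in the other 7. Of 26 epidermal and feather genes, a list added after values were seen, 9 passed the filter, and the summed level of the list was 483 RPKM in Lhasa White 1, 159 in Lhasa White 2 and 120.4 and 150.6 in Linzhi Tibetan. White Leghorn stood at 185 and 214 RPKM. The level of F-KER alone exceeds each sum outside Lhasa White 1, so the summed level is no support separate from F-KER. The epidermal keratin KRT6A lay at 3.72 RPKM in Lhasa White 1 and at most at 0.0680 elsewhere, whereas TP63, a defining factor of epidermis, stood no higher in Lhasa White, at 0.320 and 0.169 RPKM, than in Linzhi Tibetan, at 0.448 and 0.411. Some epithelial transcripts were raised in both Lhasa White libraries. CLDN1 lay at 4.43 and 1.76 RPKM there against 0 and 0.0944 in Linzhi Tibetan, and SFN at 3.02 and 1.20 against 0.187 and 0.0572. Both passed the filter only through Lhasa White. In 4 of the 9 genes of the list both Lhasa White libraries lay above the other 6 (4.02% of all genes tested). A gene that passed the filter only through Lhasa White lies above the others by construction, and the list was added after values were seen. This count is therefore no independent support.

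Lhasa White 2 held some markers of atrium, large arteries and nerve at high levels. The atrial myosin heavy chain MYH7 lay at 1457 RPKM there, at 7.07 in Lhasa White 1 and at 0.878 and 1.19 in Linzhi Tibetan. Chahua 2 held MYH7 as well, at 115 RPKM. ELN, the elastin of arterial walls, lay at 1468 RPKM in Lhasa White 2, at 110.2 in Lhasa White 1 and at 119 and 96.0 in Linzhi Tibetan. Summed levels of the 14 great vessel and valve genes in the table were 285 and 238 RPKM in Linzhi Tibetan, 271 in the first Lhasa White library and 1917 in the second. For the 15 nerve genes in the table the sums were 7.66 and 13.0 RPKM in Linzhi Tibetan against 17.5 and 112 in Lhasa White, and Chahua 2 stood at 40.8. For the 12 atrial genes in the table the sums were 2728 and 2923 RPKM in Linzhi Tibetan against 2291 and 3776 in Lhasa White. Against Lhasa White 2 alone, 10 of the 11 atrial genes tested were lower in Linzhi Tibetan and 1 higher. The higher one was NPPA, at 2480 and 2717 RPKM against 2068 and 1690 in Lhasa White. CHRM2, PAM and GJA5 lay at similar levels in both Lhasa White libraries. The ventricular myosin MYH15 lay at 3747 and 3198 RPKM in Linzhi Tibetan against 4134 and 1288 in Lhasa White. The W-linked gene ATP5A1W, carried by females alone, stood at 0.0774 and 0.355 RPKM in the Linzhi Tibetan pair, 4.01 in Lhasa White 1 and 398 in Lhasa White 2. Chahua stood at 445 and 496 RPKM and White Leghorn at 409 and 0.241. Both Linzhi Tibetan libraries were thus low in this gene, whereas most other libraries were high. The part of sex in comparisons of Linzhi Tibetan with all other libraries was not tested. Blood split both pairs: the 11 red cell genes in the table summed to 4966 and 18900 RPKM in Linzhi Tibetan against 21800 and 9087 in Lhasa White. In bulk tissue, fewer cells of a type and less RNA per cell cannot be told apart.

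**Figure D1:**
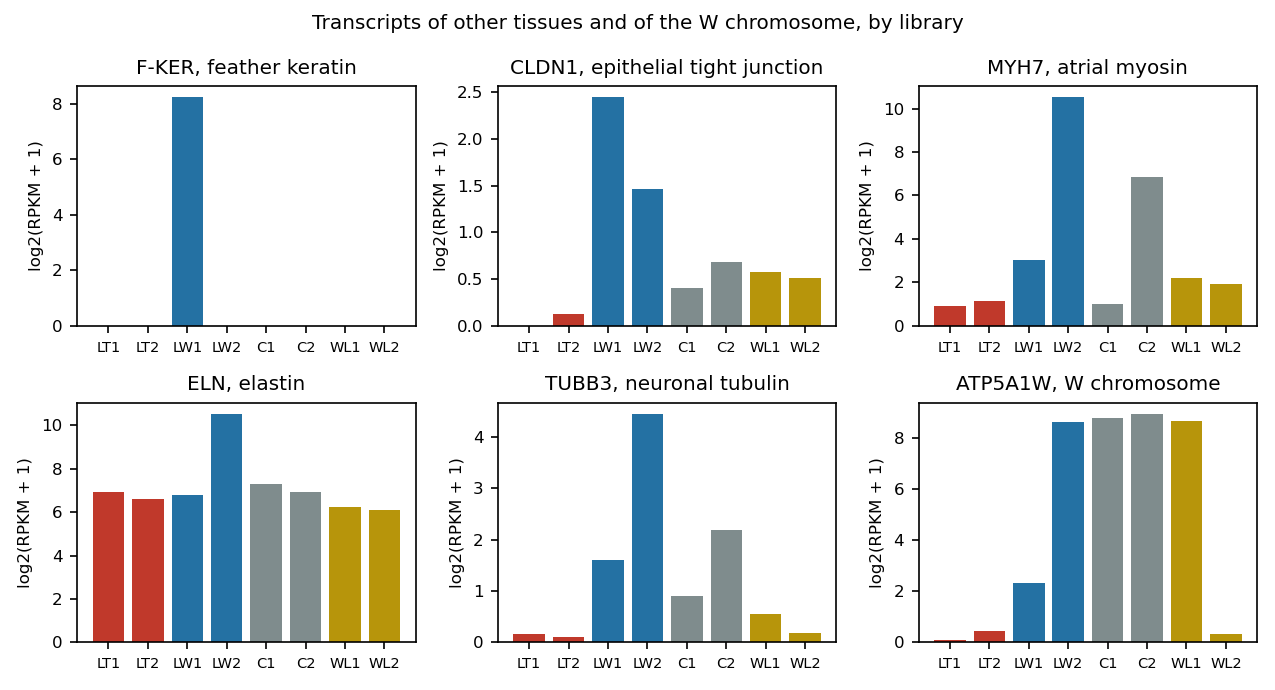
Levels of 6 transcripts in each of the 8 libraries as log2(RPKM + 1), bars from 0 (LT, Linzhi Tibetan; LW, Lhasa White; C, Chahua; WL, White Leghorn). The feather keratin F-KER stands in Lhasa White 1 alone at 300.7 RPKM, and MYH7 at 1457 RPKM and ELN at 1468 RPKM are highest in Lhasa White 2. MYH7 is next highest in Chahua 2, at 115 RPKM.

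The comparison of the 2 plateau breeds gave 0 genes at an adjusted p under 0.05 in limma with Benjamini-Hochberg adjustment over 11556 genes (0.0%), and the smallest adjusted p was 0.158. An unadjusted p under 0.05 was reached by 902 genes (7.81%), 295 higher in Linzhi Tibetan (2.55%) and 607 lower (5.25%). Voom on reads recovered from the RPKM values likewise gave 0 adjusted calls and 846 genes at an unadjusted p under 0.05. Without Lhasa White 2 the count at an unadjusted p under 0.05 was 481 (4.16%), and 2 genes passed adjustment (0.0173%), both lower in Linzhi Tibetan. One of these was JAC, at 19.2 RPKM in Lhasa White 1, 1.86 in Lhasa White 2 and listed at 0 in the other 6 libraries, and the other was an identifier without a symbol. JAC belongs to neither a fixed list nor the rule for named genes and was named after its values were seen. It passed the filter only through the 2 Lhasa White libraries. A fit that leaves out 1 Lhasa White library has no spread within that breed, and the remaining library is assumed to vary like the other breeds. Without Lhasa White 1, by contrast, 53 genes passed, 5 higher and 48 lower in Linzhi Tibetan, among them the ventricular factor IRX4 and, on the lower side, the collagen COL5A2 and the neuronal tubulin TUBB3.

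Because the Lhasa White libraries differed, genes were singled out in which they agreed: both Linzhi Tibetan values on the same side of both Lhasa White values, and the 2 Lhasa White values apart by at most 0.5 times the difference between breeds. The breeds did not overlap in 1960 genes higher in Linzhi Tibetan (17.0%) and 2859 lower (24.7%). Of all genes tested, 1068 were agreeing and higher (9.24%) and 1237 agreeing and lower (10.7%), which is 47.8% of the genes without overlap. Among the 228 genes lower by at least 1 on the log2 scale only 37 were agreeing, and among the 94 higher by as much 58 were. Of the 1237 agreeing lower genes, the Linzhi Tibetan pair alone stood outside the range of the other 6 libraries in 285, the Lhasa White pair alone in 222, both pairs in 62 with the lowland libraries between them, and neither in 668. Of the 1068 agreeing higher genes these counts were 223, 98, 31 and 716. Over all genes tested, both Linzhi Tibetan libraries lay below the other 6 in 6.27% and above them in 4.28%, and both Lhasa White libraries lay below in 1.55% and above in 4.02%.

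**Figure D2:**
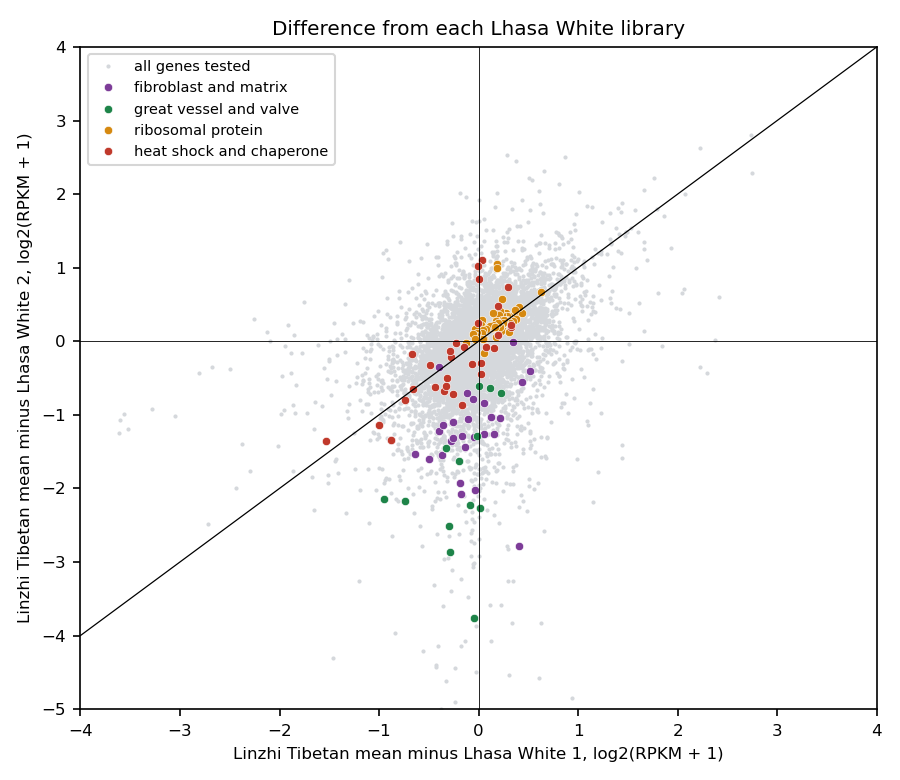
Each point is a gene tested, with the Linzhi Tibetan mean minus Lhasa White 1 on the horizontal axis and minus Lhasa White 2 on the vertical axis, both on log2(RPKM + 1); the line marks equal differences and a few genes lie outside the axes. Great vessel and matrix genes lie below 0 mostly on the vertical axis, whereas chaperones such as HSP90AA1 (-1.53 and -1.36) lie near the line.

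Ranked by p, the first 10 agreeing genes that have a symbol and were lower in Linzhi Tibetan included 4 chaperones. The chaperone list held 31 of the 11556 genes tested and 9 of the 1237 agreeing lower genes. HSPA8 (ENSGALG00000006512), the constitutive Hsc70 that folds new proteins and uncoats clathrin vesicles, lay at 92.5 and 88.9 RPKM in Linzhi Tibetan against 182 and 201 in Lhasa White, with a range of 144 to 180.2 over the lowland libraries. Both Linzhi Tibetan libraries were below all others. The means were 90.7 ± 2.49 and 192 ± 13.2 RPKM (SD, n = 2 each), 2.11 times as high in Lhasa White, or -1.07 on the log2 scale as Linzhi Tibetan minus Lhasa White (SE 0.139, limma adjusted p = 0.243). HSP90AA1 (ENSGALG00000011351), the stress-inducible cytosolic Hsp90, lay at 87.2 and 63.2 RPKM in Linzhi Tibetan against 217 and 192 in Lhasa White, with 137 to 229.6 in the lowland breeds. Its log2 difference was -1.45 (SE 0.202, limma adjusted p = 0.291), and again the Linzhi Tibetan pair was lowest of all. DNAJA1 and SERPINH1 are described with the chaperones below.

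ADM (ENSGALG00000005666), the precursor of the vasodilator peptide adrenomedullin, had the widest log2 difference of these 10. It lay at 11.2 and 10.1 RPKM in Linzhi Tibetan against 35.6 and 56.3 in Lhasa White, a mean 4.32 times as high (log2 difference -1.98, SE 0.297, limma adjusted p = 0.357). The lowland breeds split, Chahua standing at 21.3 and 37.7 RPKM but White Leghorn at 12.01 and 12.9, so that the Linzhi Tibetan level was close to that of White Leghorn. RSFR (ENSGALG00000027165), a leukocyte ribonuclease of the RNase A family, lay at 3.86 and 3.18 RPKM in Linzhi Tibetan against 11.0 and 14.6 in Lhasa White, with 5.05 to 7.62 in the lowland breeds, between the 2 pairs (log2 difference -1.60, SE 0.21, limma adjusted p = 0.243). BMP3, a member of the bone morphogenetic protein family that opposes bone-forming members, stood apart in Lhasa White: it lay at 11.7 and 13.3 RPKM there and at 1.85 to 4.03 in the other 6 libraries (log2 difference -1.52, limma adjusted p = 0.374).

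The other 3 lower genes lay at low levels. CD4, the coreceptor of helper T cells, lay at 0.0751 and 0.207 RPKM in Linzhi Tibetan, on 3 and 9 reads, and at 1.70 and 2.80 in Lhasa White, on 67 and 105 reads, with 0.620 to 1.75 in the lowland breeds. NPY7R, a receptor of neuropeptide Y, lay at 1.32 and 0.779 RPKM in Linzhi Tibetan against 3.82 and 3.81 in Lhasa White, and HOXB4, a homeobox transcription factor, at 2.62 and 3.55 against 7.48 and 8.503. For CD4 and HOXB4 the Linzhi Tibetan pair was below all other libraries, and for NPY7R the Lhasa White pair was above all others, though White Leghorn at 2.98 and 3.35 came close. Their limma adjusted p-values were 0.477, 0.477 and 0.477.

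Among agreeing genes higher in Linzhi Tibetan, GBX2 (ENSGALG00000013342), a homeobox transcription factor known from hindbrain patterning, had the widest difference. It lay at 14.8 and 4.99 RPKM in Linzhi Tibetan, which differ from each other, and at 0.458 and 0.387 in Lhasa White, on 163 and 60 and 5 and 4 reads. Chahua stood at 1.18 and 0.653 RPKM and White Leghorn at 3.49 and 3.67. The mean was 9.87 ± 6.91 RPKM against 0.422 ± 0.0502 (SD, n = 2 each), a difference of 2.77 on the log2 scale (SE 0.424, limma adjusted p = 0.357). HHLA2, an immune checkpoint ligand of the B7 family, lay at 12.7 and 19.7 RPKM in Linzhi Tibetan against 4.30 and 5.604 in Lhasa White, with 5.96 to 11.8 in the lowland breeds (log2 difference 1.51, SE 0.246, limma adjusted p = 0.381). For both genes the lowland libraries lay between the pairs.

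DMC1, the meiotic strand exchange protein, lay at 4.34 and 3.38 RPKM in Linzhi Tibetan against 0.863 and 0.663 in Lhasa White, with 0.906 to 2.64 in the lowland breeds. GBP, an interferon-induced guanylate-binding protein, lay at 2.65 and 4.43 RPKM in Linzhi Tibetan against 0.901 and 0.895 in Lhasa White, different by 1.23 on the log2 scale (SE 0.233, limma adjusted p = 0.477), whereas the lowland breeds lay above both at 9.17 to 18.8. The plateau breeds thus differed from each other in this gene as well as from the lowland libraries. PCTP, the phosphatidylcholine transfer protein, lay at 20.8 and 27.6 RPKM in Linzhi Tibetan against 13.0 and 11.2 in Lhasa White, and SYVN1, an endoplasmic reticulum ubiquitin ligase that clears misfolded proteins, at 33.9 and 29.7 against 20.3 and 17.1 (limma adjusted p = 0.477 for both).

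PNRC1, a nuclear receptor coactivator, lay at 642 and 475 RPKM in Linzhi Tibetan against 344 and 274 in Lhasa White, and FAM178A at 18.6 and 17.6 against 8.92 and 6.83. In both genes the Linzhi Tibetan pair was above all other libraries. The microRNA precursors gga-let-7i and gga-let-7a-1 complete the list, but on very few reads. The first had 7 and 12 reads in Linzhi Tibetan against 2 and 2 in Lhasa White, and the second at least 1 and 2 reads in Linzhi Tibetan and 0 in the other 6 libraries. The second thus passed the filter only through the breed where it was high. A library made from mRNA does not measure mature microRNAs, and no fold is given for these. All 434 values of these 20 genes under the alternatives kept their direction and stayed above an adjusted p of 0.05. The rule that chose these genes keeps the breeds apart, so leaving out a library could not reverse the direction. The kept direction is therefore no independent support.

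**Figure D3:**
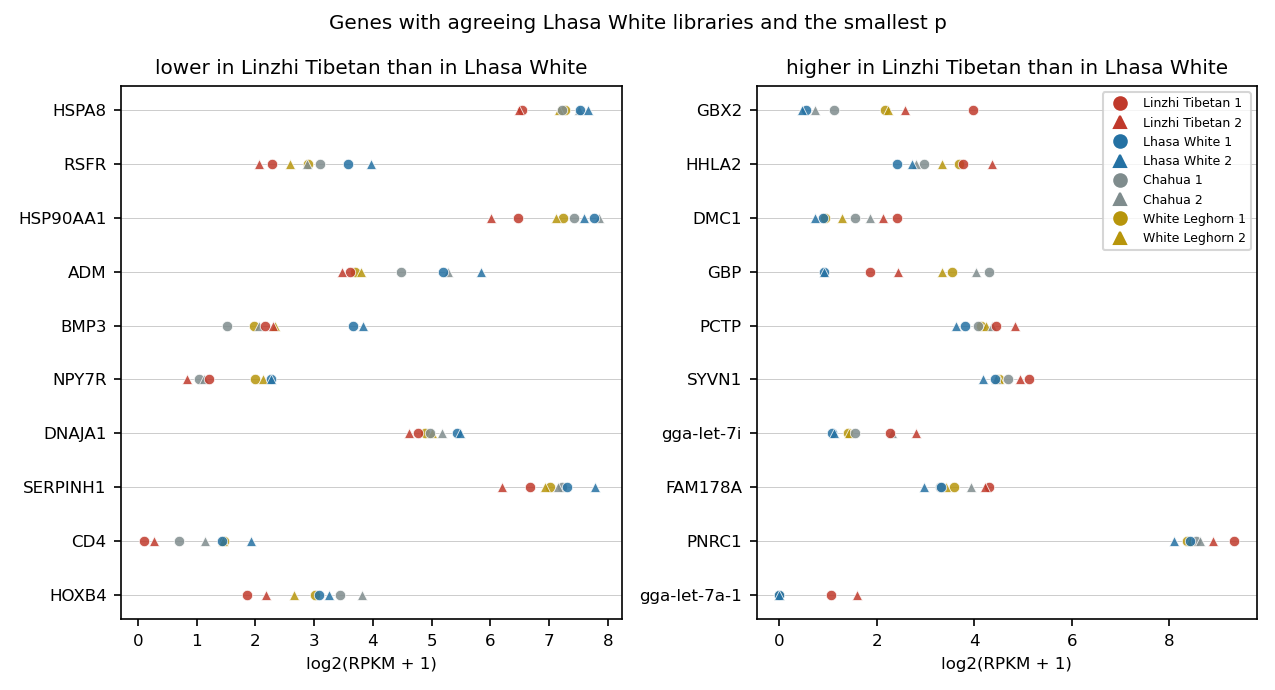
Levels on log2(RPKM + 1) of the 20 named agreeing genes, 10 lower and 10 higher in Linzhi Tibetan; each mark is a library. Red marks of Linzhi Tibetan and blue marks of Lhasa White do not overlap in any of the 20, by the rule that chose them, and for HSPA8 the lowland libraries lie between them.

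Of genes without a symbol, the smallest p in each direction is given here, chosen after the values were seen. ENSGALG00000000187 lay at 0.413 and 0.506 RPKM in Linzhi Tibetan against 8.57 and 7.18 in Lhasa White, with 0.400 to 0.981 in the lowland breeds, a log2 difference of -2.60 (limma adjusted p = 0.158). By contrast, ENSGALG00000027839 lay at 3.59 and 3.03 RPKM in Linzhi Tibetan but at 0.0244 to 0.174 in the other 6 libraries, a log2 difference of 2.03 (limma adjusted p = 0.243). The first was thus high in Lhasa White alone and the second in Linzhi Tibetan alone. Both passed at a limma adjusted p of 0.0297 when the variance trend was left out of the fit. Each reached 1 RPKM only in the breed where it was high, and so passed the filter through that breed alone. These p-values are therefore no independent support for a breed difference.

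Several of the main chaperones lay lower in Linzhi Tibetan than in both Lhasa White libraries. Of 31 heat shock and chaperone genes tested (of 32 in the table), 21 were lower and 10 higher in Linzhi Tibetan, with a median log2 difference of -0.21 against -0.05 over all genes tested. At an unadjusted p under 0.05, 10 of the 31 were lower and 0 higher (32.3%, against 5.25% of all genes tested), and 0 passed adjustment. Agreeing genes were 9 lower and 1 higher (29.0% lower, against 10.7%). The median was -0.17 without Lhasa White 2 and -0.21 without Lhasa White 1, so leaving out either library moved it little. In 8 of the 31 both Linzhi Tibetan libraries lay below the other 6 (6.27% of all genes tested), and in 4 both Lhasa White libraries lay above the other 6 (4.02%). The summed level of the list did not separate the breeds, at 3563 and 3624 RPKM in Linzhi Tibetan against 3930 and 3564 in Lhasa White. The small heat shock protein HSPB1 took 1302 and 1333 RPKM of these sums in Linzhi Tibetan against 1151 and 946 in Lhasa White.

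The lower chaperones were mostly of the cytosolic Hsp70 and Hsp90 machines. DNAJA1, a J-domain partner of Hsp70 encoded on the Z chromosome, lay at 26.1 and 23.4 RPKM in Linzhi Tibetan against 42.0 and 43.5 in Lhasa White, with 28.8 to 35.2 in the lowland breeds (log2 difference -0.77, SE 0.136, limma adjusted p = 0.477). Male birds carry a second copy of the Z chromosome, the W-linked level differed between the Lhasa White libraries, and the part of sex in this difference was not tested. DNAJA4, a related partner, lay at 14.0 and 13.0 RPKM in Linzhi Tibetan against 18.6 and 21.3 in Lhasa White, and HSPH1, the nucleotide exchange factor Hsp110, at 2.59 and 3.26 against 5.17 and 5.11. HSP90AB1, the constitutive Hsp90, lay at 33.9 and 38.3 RPKM in Linzhi Tibetan against 45.1 and 51.6 in Lhasa White, and AHSA1, which activates the ATPase of Hsp90, at 39.6 and 43.1 against 50.2 and 48.0. The breeds did not overlap in these 5 genes, and the log2 differences of the last 4 ran from -0.65 (HSPH1) to -0.24 (AHSA1). Over the list, 16 of the 31 were lower without overlap, against 24.7% of all genes tested.

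Chaperones of other compartments were less uniform. In the mitochondrion, the chaperonin HSPD1 lay at 160.0 and 212 RPKM in Linzhi Tibetan against 259 and 231 in Lhasa White, whereas its partner HSPE1 lay at 411 and 545 against 475 and 398 and the mitochondrial Hsp70 HSPA9 at 140.1 and 142 against 157 and 148. In the endoplasmic reticulum, the Hsp70 HSPA5 lay at 147 and 111 RPKM in Linzhi Tibetan against 163 and 203 in Lhasa White and the Hsp90 HSP90B1 at 140.4 and 112 against 149.5 and 206, both lower in Linzhi Tibetan without agreeing Lhasa White values. SERPINH1, the collagen chaperone Hsp47, lay at 102 and 72.0 RPKM in Linzhi Tibetan against 158 and 218 in Lhasa White, with 120.4 to 147 in the lowland breeds (log2 difference -1.11, SE 0.208, limma adjusted p = 0.477). The 29 matrix genes, of which SERPINH1 is one, summed to 3221 and 2690 RPKM in Linzhi Tibetan against 3468 and 6654 in Lhasa White, and their part in its difference was not tested.

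Small heat shock proteins went the other way in level, in Lhasa White 2 mainly. Beside HSPB1, HSPB7, a heart-enriched member, lay at 148 and 145 RPKM in Linzhi Tibetan against 146 and 81.1 in Lhasa White, and HSPB8 at 177 and 141 against 128 and 94.1. For HSPB7 the difference from Lhasa White 1 was 0.01 and that from Lhasa White 2 was 0.84 on the log2 scale. The transcription factors of the response were at similar levels, HSF1 at 20.6 and 13.4 RPKM in Linzhi Tibetan against 14.9 and 17.8 in Lhasa White, and HSF2 at 16.1 and 16.7 against 17.2 and 20.5. HSF3, the avian factor that responds to severe heat, was the agreeing higher gene at 14.7 and 12 RPKM in Linzhi Tibetan against 10.4 and 11.2 in Lhasa White (log2 difference 0.28, limma adjusted p = 0.724).

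**Figure D4:**
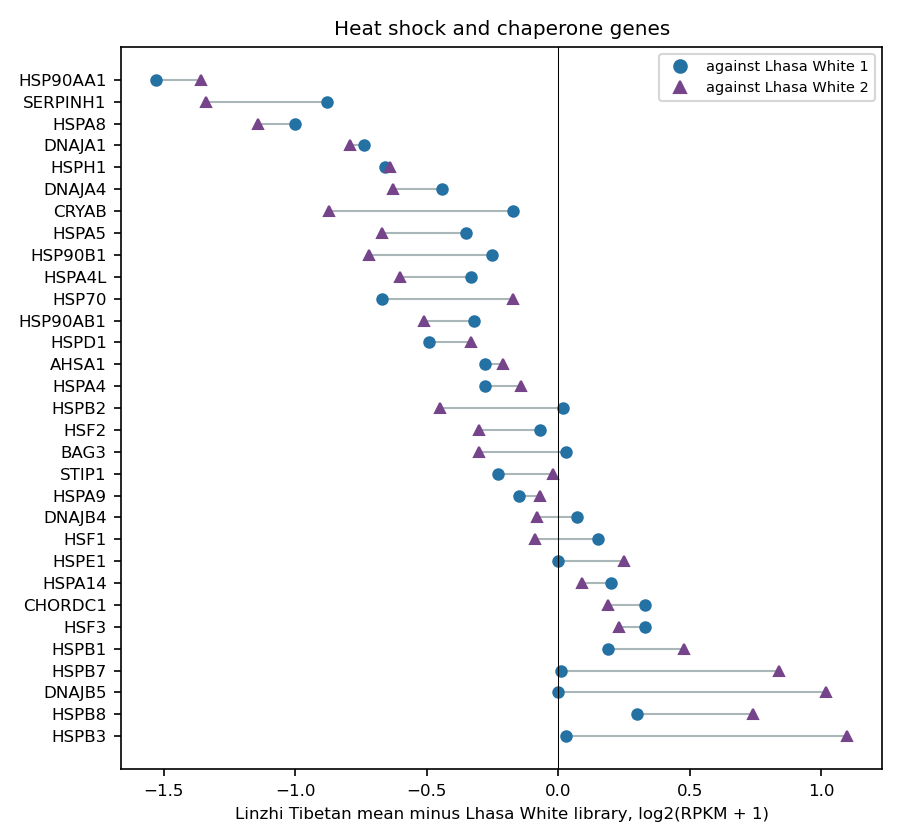
Difference of each of the 31 chaperone genes tested between the Linzhi Tibetan mean and each Lhasa White library, on log2(RPKM + 1). HSP90AA1, SERPINH1, HSPA8 and DNAJA1 lie left of 0 against both libraries, while the small heat shock genes HSPB7 and HSPB3 lie right of 0 against Lhasa White 2 and near 0 against Lhasa White 1.

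Genes of ribosomal proteins, the structural parts of the protein synthesis machine, lay a little higher in Linzhi Tibetan. Of 64 tested (of 66 in the table), 61 were higher and 3 lower, with a median log2 difference of 0.22. The median was 0.20 without Lhasa White 2, 0.24 without Lhasa White 1 and 0.11 after quantile normalization. At an unadjusted p under 0.05, 7 were higher and 0 lower (10.9%, against 2.55% of all genes tested), and 38 were agreeing and higher (59.4%, against 9.24%). In 26 of the 64 both Linzhi Tibetan libraries lay above the other 6, against 4.28% of all genes tested.

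RPL39 had the widest difference of the 7, at 1892 and 1674 RPKM in Linzhi Tibetan against 1152 and 1120 in Lhasa White, with 1261 to 1565 in the lowland breeds (log2 difference 0.65, SE 0.164, limma adjusted p = 0.52). RPS26 lay at 564 and 507 RPKM in Linzhi Tibetan against 408 and 412 in Lhasa White, RPL37A at 2823 and 2585 against 1994 and 2070, and RPL19 at 1308 and 1286 against 1070 and 993. The breeds did not overlap in these 4 genes. Over the list, 51 of the 64 were higher without overlap, against 17.0% of all genes tested. Short mRNAs are common among them, and reads of processed copies of ribosomal genes cannot be told apart in these values.

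VEGFA and PGF, both vascular growth factors, lay higher in Linzhi Tibetan, whereas the growth factor FIGF did not. Of 16 genes of angiogenic signalling, all tested, 11 were higher and 5 lower, with a median log2 difference of 0.26 (0.24 without Lhasa White 2 and 0.28 without Lhasa White 1). At an unadjusted p under 0.05, 3 were higher (18.8%, against 2.55% of all genes tested) and 1 lower (6.25%, against 5.25%), and 6 were agreeing and higher (37.5%, against 9.24%). VEGFA (ENSGALG00000010290), the main growth factor of new vessels, lay at 111 and 97.6 RPKM in Linzhi Tibetan against 76.0 and 61.6 in Lhasa White, with a range of 82.7 to 104 over the lowland libraries. Lhasa White was the breed apart, below all other libraries. The means were 104 ± 9.55 and 68.8 ± 10.2 RPKM (SD, n = 2 each), different by 0.60 on the log2 scale (SE 0.142, limma adjusted p = 0.49). PGF, the placental growth factor and a ligand of FLT1, lay at 14.3 and 12.8 RPKM in Linzhi Tibetan against 9.04 and 7.98 in Lhasa White, with 9.32 to 20.3 in the lowland breeds. FIGF, the growth factor VEGF-D, had the widest difference of the list and was highest in Lhasa White 2, at 0.508 and 1.58 RPKM in Linzhi Tibetan against 0.612 and 17.9 in Lhasa White (log2 difference -1.48, and 0.29 against Lhasa White 1 alone). The Notch ligand of endothelial tip cells DLL4 lay at 14.1 and 13.3 RPKM in Linzhi Tibetan against 11.1 and 9.54 in Lhasa White.

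Receptors for these factors were higher by smaller amounts. KDR, the main VEGF receptor, lay at 16.7 and 18.8 RPKM in Linzhi Tibetan against 14.8 and 13.8 in Lhasa White, FLT1 at 10.8 and 8.66 against 7.82 and 8.41, and FLT4, the receptor of lymphatic growth, at 9.52 and 9.29 against 7.95 and 7.25. NRP2, a coreceptor, went against them at 11.6 and 12.6 RPKM in Linzhi Tibetan against 15.0 and 23.5 in Lhasa White. Of 21 endothelial marker genes, all tested, 13 were higher and 8 lower, with a median of 0.15. Of these, 7 were agreeing and higher (33.3%, against 9.24% of all genes tested) and 0 agreeing and lower (against 10.7%). ESAM, an adhesion protein of endothelial junctions, lay at 77.8 and 83.3 RPKM in Linzhi Tibetan against 61.7 and 52.5 in Lhasa White (log2 difference 0.49, SE 0.137, limma adjusted p = 0.546). SOX18, a transcription factor of vessel formation, lay at 41.7 and 44.1 RPKM in Linzhi Tibetan against 23.5 and 31.1 in Lhasa White, whereas ENG, a TGF-beta coreceptor, lay at 95.2 and 70.9 against 97.8 and 176. The endothelial list summed to 1020 and 927 RPKM in Linzhi Tibetan against 886 and 936 in Lhasa White, so its summed level overlapped between the breeds. FLT1, FLT4, KDR, TEK and TIE1 belong to both lists, and the receptors TEK and TIE1 had log2 differences of -0.12 and 0.01.

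The oxygen-sensing pathway itself lay at similar levels in both breeds. Of 13 genes tested (of 14 in the table), 7 were higher and 6 lower, with a median log2 difference of 0.02. An unadjusted p under 0.05 was reached by 0 of them, against 7.81% of all genes tested. EPAS1 lay at 43.5 and 51.3 RPKM in Linzhi Tibetan against 54.6 and 59.6 in Lhasa White (log2 difference -0.27, SE 0.201), HIF1A at 15.0 and 12.4 against 13.0 and 17.9 (-0.15, SE 0.278) and EGLN1 at 23.4 and 20.2 against 17.6 and 21.3 (0.16, SE 0.158). The limma adjusted p-values of these 3 were 0.734, 0.894 and 0.785. EPAS1 was agreeing and lower, and EGLN3, the hydroxylase that HIF itself raises, was agreeing and higher at 42.4 and 30.0 RPKM in Linzhi Tibetan against 27.5 and 26.6 in Lhasa White. They were the 1 agreeing gene of each direction (7.69%, against 10.7% lower and 9.24% higher of all genes tested). An unpassed test does not show that these levels are equal.

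Genes that HIF is known to raise were split. Of 33 tested (of 34 in the table), 13 were higher and 20 lower, with a median of -0.06, next to -0.05 over all genes tested. At an unadjusted p under 0.05, 2 were higher (6.06%, against 2.55%) and 6 lower (18.2%, against 5.25%), and 1 was agreeing and higher (VEGFA) and 6 agreeing and lower (18.2%, against 10.7%). Beside ADM, the glucose transporter SLC2A1 lay at 30.9 and 25.9 RPKM in Linzhi Tibetan against 40.1 and 47.2 in Lhasa White, and BNIP3L, a receptor for the removal of mitochondria, at 34.7 and 34.3 against 45.8 and 47.9. TF, the iron carrier transferrin, lay at 1.32 and 1.39 RPKM in Linzhi Tibetan against 3.62 and 3.89 in Lhasa White, and its receptor TFRC at 25.4 and 54.0 against 87.8 and 52.5. TFRC is also a gene of red cell precursors, and within each pair it was higher in the library with the higher red cell sum. The part of blood in its difference was not tested.

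Among genes of beat-to-beat calcium, both a store protein and the pump that fills the store lay lower in Linzhi Tibetan. CASQ2 (ENSGALG00000015018), the cardiac calsequestrin that stores calcium in the sarcoplasmic reticulum, lay at 148 and 149.5 RPKM in Linzhi Tibetan against 213 and 221 in Lhasa White, with 191 to 237 in the lowland breeds. Linzhi Tibetan was below all other libraries, by -0.54 on the log2 scale against Lhasa White (SE 0.114, limma adjusted p = 0.477). ATP2A2, the pump that refills this store, lay at 148 and 160.2 RPKM in Linzhi Tibetan against 219 and 317 in Lhasa White, with 216 to 257 in the lowland breeds (log2 difference -0.77, SE 0.179, limma adjusted p = 0.49). Its Lhasa White values were too far apart to be agreeing, but Linzhi Tibetan was again below all others. Over the 14 genes of calcium handling, all tested, 8 were higher and 6 lower, with a median of 0.05. CASQ2 and ATP2A2 were the 2 lower ones at an unadjusted p under 0.05 (14.3%, against 5.25% of all genes tested), beside 0 higher ones.

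Of 17 ion channel, pump and connexin genes tested (of 25 in the table), 5 were higher and 12 lower, with a median of -0.32 (-0.11 without Lhasa White 2 and -0.43 without Lhasa White 1). At an unadjusted p under 0.05, 0 were higher and 3 lower (17.6%, against 5.25%), and 5 were agreeing and lower (29.4%, against 10.7%). GJA1 (ENSGALG00000014873), connexin 43, lay at 12.4 and 7.75 RPKM in Linzhi Tibetan against 23.3 and 19.9 in Lhasa White, with 11.9 to 15.6 in the lowland breeds (log2 difference -1.06, SE 0.218, limma adjusted p = 0.477). Lhasa White was above all others. ATP1B1, a subunit of the sodium pump, lay at 205 and 211 RPKM in Linzhi Tibetan against 279 and 266 in Lhasa White, KCNH2, a repolarizing potassium channel, at 4.97 and 5.70 against 9.03 and 8.43, and GJA5, connexin 40 of atrium and conduction fibres, at 66.5 and 67.5 against 87.6 and 93.1. Over the lowland libraries GJA5 ran from 49.4 to 119 RPKM, White Leghorn at 113 and 119 standing above both plateau breeds.

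Contractile and regulatory genes of the muscle were near balance. Of 27 sarcomere genes tested (of 30 in the table), 15 were higher and 12 lower, with a median of 0.04. TNNT2 lay at 8848 and 7746 RPKM in Linzhi Tibetan against 6055 and 5502 in Lhasa White (log2 difference 0.52, limma adjusted p = 0.619), and the cardiac actin ACTC1 at 1531 and 2245 against 2562 and 2349. Of 20 cardiac transcription factors tested (of 21 in the table), 13 were higher and 7 lower, with a median of 0.15. GATA6, which directs heart and vessel development, lay at 83.9 and 55.1 RPKM in Linzhi Tibetan against 39.5 and 43.8 in Lhasa White, with 38.5 to 51.4 in the lowland breeds, so Linzhi Tibetan was highest (log2 difference 0.70, SE 0.195, limma adjusted p = 0.546). MEF2C, a muscle factor encoded on the Z chromosome, lay at 17.0 and 18.6 RPKM in Linzhi Tibetan against 12.4 and 7.62 in Lhasa White, with Lhasa White 2 low. The part of sex in the MEF2C difference was not tested.

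The medians of the 3 lists of fuel genes ran from -0.04 to 0.10, next to -0.05 over all genes tested. Of 55 nuclear genes of oxidative phosphorylation, all tested, 37 were higher and 18 lower (median 0.04). Agreeing genes were 2 higher (3.64%, against 9.24% of all genes tested) and 0 lower (against 10.7%). Against Lhasa White 1 alone 13 were higher and 42 lower, and against Lhasa White 2 alone 50 were higher and 5 lower, so the direction depended on the library. Of 25 glycolysis genes tested, 5 were agreeing and lower (20%, against 10.7%) and 2 agreeing and higher (8.0%, against 9.24%), with a median of -0.04. The unadjusted p was under 0.05 in 3 lower genes (12%, against 5.25%) and 0 higher ones. GPI, the glucose phosphate isomerase, lay at 197 and 257 RPKM in Linzhi Tibetan against 359 and 312 in Lhasa White, and PFKL, a phosphofructokinase, at 12.7 and 18.4 against 24.4 and 22.3. Of 30 genes of fatty acid oxidation, 17 were higher and 13 lower (median 0.10, and -0.14 without Lhasa White 2). LPL, which frees fatty acids from lipoproteins, lay at 153 and 114 RPKM in Linzhi Tibetan against 91.3 and 59.8 in Lhasa White, highest in Linzhi Tibetan 1 and lowest in Lhasa White 2 of these 4. LPL is encoded on the Z chromosome, and the part of sex in its difference was not tested.

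Genes of defence against oxidants lay near the background in their median and unadjusted calls. Of 36 tested (of 39 in the table), 11 were higher and 25 lower, with a median of -0.06 next to -0.05 over all genes tested. At an unadjusted p under 0.05, 2 were lower (5.56%, against 5.25%) and 0 higher, 6 were agreeing and lower (16.7%, against 10.7%) and 0 agreeing and higher. NQO1 (ENSGALG00000023437), the quinone reductase that NFE2L2 controls, lay at 2.12 and 1.27 RPKM in Linzhi Tibetan against 4.74 and 7.85 in Lhasa White, with 2.50 to 4.12 in the lowland breeds (log2 difference -1.42, SE 0.307, limma adjusted p = 0.477). TXNRD1, a thioredoxin reductase, lay at 1.999 and 2.53 RPKM in Linzhi Tibetan against 3.35 and 3.90 in Lhasa White, and NFE2L2, the transcription factor of this response, at 18.1 and 22.3 against 26.9 and 24.5. The breeds did not overlap in these 3, which were picked for role or p. Over the list, 10 of the 36 were lower without overlap, next to 24.7% of all genes tested.

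Of 20 feedback inhibitors and adaptors of FGF signalling tested (of 23 in the table), 6 were higher and 14 lower (median -0.18, and -0.06 without Lhasa White 2), and 3 had an unadjusted p under 0.05, all lower (15.0%, against 5.25% of all genes tested). The same 3 were the agreeing lower genes (15.0%, against 10.7%), beside 2 agreeing higher ones. IL17RD, an inhibitor of FGF receptors at the membrane, lay at 0.993 and 1.10 RPKM in Linzhi Tibetan against 4.05 and 2.71 in Lhasa White, with 4.25 to 5.90 in the lowland breeds (log2 difference -1.08, SE 0.214, limma adjusted p = 0.477). FRS3, an adaptor of the receptors, lay at 11.1 and 8.56 RPKM in Linzhi Tibetan against 13.7 and 14.6 in Lhasa White, and SPRY3, of the Sprouty inhibitors, at 8.33 and 6.79 against 11.1 and 12.2. For basement membrane genes, 18 tested of 23 in the table, 4 were agreeing and lower (22.2%, against 10.7%) and 0 agreeing and higher (against 9.24%), with a median of -0.21. NID1, which links laminin to collagen IV, lay at 10.8 and 12.2 RPKM in Linzhi Tibetan against 20.1 and 26.6 in Lhasa White (limma adjusted p = 0.49). LAMA1, a laminin chain, lay at 0.481 and 0.221 RPKM in Linzhi Tibetan against 0.666 and 0.268 in Lhasa White.

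Of 19 interferon and antigen presentation genes tested (of 24 in the table), 9 were higher and 10 lower, with a median of -0.07 next to -0.05 over all genes tested. At an unadjusted p under 0.05, 2 were higher (10.5%, against 2.55%) and 1 lower (5.26%, against 5.25%). Agreeing genes were 5 higher (26.3%, against 9.24%) and 0 lower (against 10.7%). Beside GBP the agreeing higher genes were IRF1, PARP9, TAP1 and TAP2, with log2 differences of 0.22 (PARP9) to 0.32 (IRF1 and TAP2). TAP2, a subunit of the peptide transporter for class I molecules, lay at 5.02 and 3.64 RPKM in Linzhi Tibetan against 3.16 and 3.29 in Lhasa White. IRF8 went the other way, at 4.50 and 4.49 RPKM in Linzhi Tibetan against 6.31 and 7.945 in Lhasa White. Linzhi Tibetan was below all other libraries there (log2 difference -0.56, limma adjusted p = 0.558). All 7 macrophage genes tested (of 10 in the table) were lower in Linzhi Tibetan. The median was -0.68, but -0.25 without Lhasa White 2, when 6 of 7 were lower, and -1.02 without Lhasa White 1. Summed over the list, the Linzhi Tibetan pair stood at 21.9 and 20.7 RPKM, the Lhasa White pair at 28.6 and 54.9. At an unadjusted p under 0.05, 3 were lower (42.9%, against 5.25% of all genes tested) and 0 higher. In 5 of the 7 both Linzhi Tibetan libraries lay below the other 6 (6.27% of all genes tested). Agreeing genes were 0 lower (against 10.7%) and 0 higher (against 9.24%). CSF1R, the receptor that macrophages need, lay at 2.69 and 2.36 RPKM in Linzhi Tibetan against 5.02 and 9.18 in Lhasa White, with 4.05 to 5.40 in the lowland breeds. Of 7 lymphocyte and thrombocyte genes tested (of 14 in the table), 3 were higher and 4 lower, with a median of -0.01 (-0.52 without Lhasa White 2 and 0.19 without Lhasa White 1). ITGB3, the platelet-type integrin of thrombocytes, lay at 3.56 and 5.24 RPKM in Linzhi Tibetan against 7.98 and 9.05 in Lhasa White, whereas its partner ITGA2B had a log2 difference of 0.07. CXCR4, a chemokine receptor, lay at 8.15 and 9.45 RPKM in Linzhi Tibetan against 6.46 and 2.31 in Lhasa White.

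The lists with the largest medians rested on Lhasa White 2. The 29 matrix genes had a median of -0.73, which was -0.14 without Lhasa White 2 and -1.26 without Lhasa White 1. COL3A1, a fibrillar collagen, lay at 304 and 238 RPKM in Linzhi Tibetan against 419 and 783 in Lhasa White. Of the 29, 2 were agreeing and lower (6.9%, against 10.7% of all genes tested), SERPINH1 and TIMP3, an inhibitor of matrix proteases. For the 13 great vessel and valve genes tested the median was -1.12 (-0.08 without Lhasa White 2, -2.14 without Lhasa White 1), and for the 10 nerve genes tested -1.18 (-0.29 and -1.80), with 0 agreeing genes in each. HAPLN1, which binds hyaluronan in valve matrix, lay at 0.213 and 0.465 RPKM in Linzhi Tibetan against 1.57 and 4.89 in Lhasa White, and SOX10, of glial precursors, at 0.109 and 0.599 against 1.46 and 4.57. In both genes Lhasa White 1 was above Linzhi Tibetan as well. For 32 genes of BMP and TGF-beta signalling the median was -0.26 (-0.02 without Lhasa White 2). In each direction 1 was agreeing (3.125%, against 9.24% higher and 10.7% lower of all genes tested). Of the 15 smooth muscle and pericyte genes tested, 13 were lower and 4 agreeing and lower (26.7%, against 10.7%). Among the 4 were RGS4 at 12.8 and 13.1 RPKM in Linzhi Tibetan against 16.6 and 17.8 in Lhasa White and CSPG4 at 5.92 and 4.63 against 8.06 and 9.19, both of pericytes. The 2 higher genes of the list were DES (log2 difference 0.19) and ABCC9 (0.31). ABCC9 lay at 12.9 and 9.41 RPKM in Linzhi Tibetan against 9.455 and 8.02 in Lhasa White.

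**Figure D5:**
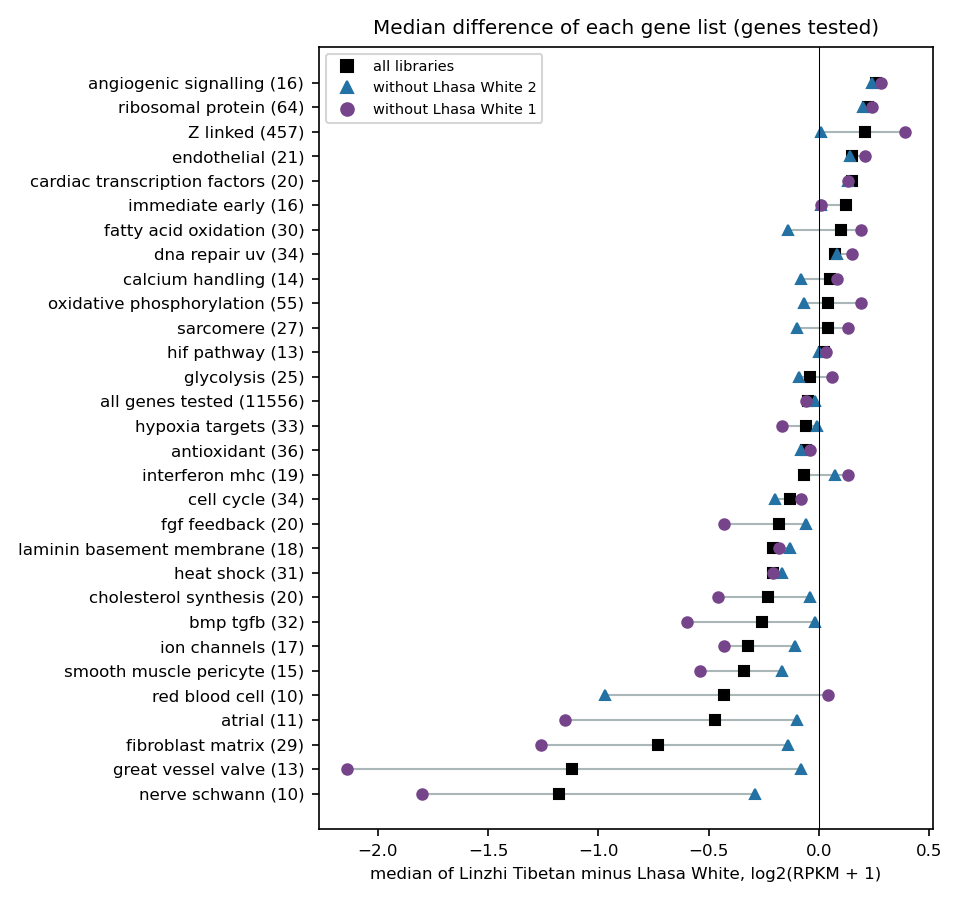
Median log2 difference, Linzhi Tibetan minus Lhasa White, of each gene list with at least 10 genes tested (number in brackets), with all libraries (squares), without Lhasa White 2 (triangles) and without Lhasa White 1 (circles). Nerve, great vessel and matrix lists move from -1.18, -1.12 and -0.73 toward 0 without Lhasa White 2, whereas heat shock, ribosomal and angiogenic medians stay within 0.04 of their values.

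The median of Z-linked genes also moved with Lhasa White 2. The 457 Z-linked genes tested had a median of 0.21, which was 0.01 without Lhasa White 2 and 0.39 without Lhasa White 1. Of the 457, 40 were agreeing and higher (8.75%, against 9.24% of all genes tested) and 25 agreeing and lower (5.47%, against 10.7%). Both Linzhi Tibetan libraries lay above the other 6 in 59 of the 457 (4.28% of all genes tested) and below them in 10 (6.27%). DNAJA1, LPL, MEF2C and HAPLN1, named above, are Z-linked. When the W-linked level entered as a covariate, 325 genes had an unadjusted p under 0.05 in place of 902, and 0 passed adjustment. That level (ATP5A1W) differed mostly within the Lhasa White pair (4.01 and 398 RPKM) and the White Leghorn pair (409 and 0.241). Lhasa White 2 also held the atrial, vessel and nerve transcripts, and the covariate takes up a residual degree of freedom. The part of sex in the lower count cannot be told apart from these.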

How the data were processed

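Per the labels' protocols, RNA was isolated with TRIzol and sequenced as mRNA libraries of an Illumina kit. The authors deposited RPKM values for 15873 Ensembl gene identifiers, 2730 of them without a symbol, per the file headers. BWA is listed as a tool, per the submitters' processing notes. Its version, the genome build, gene models, counting and strand are not stated in those sources.

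From these, log2(RPKM + 1) was computed for the 11556 genes with at least 1 RPKM in at least 2 libraries, so that differences of low genes are understated. The 8 libraries were fitted with limma 3.58.1 (R 4.3.3), each breed having its own mean, with moderated variances that follow a trend on level and 4 residual degrees of freedom. P-values of Linzhi Tibetan minus Lhasa White were adjusted by the Benjamini-Hochberg method over all genes tested, with a threshold of 0.05. Values are whole multiples of 1 read in 15872 genes within 0.02 reads, which gave library sizes of 17245669 to 22157553 mapped reads over the 8 libraries and the reads used for voom. Where several gene lengths gave whole reads the shortest was taken, so the reads of a gene are the fewest that its values allow. Replicate numbers did not pair the samples (correlation of deviations -0.064 between the breeds). The GRCg7b gene table gave a chromosome for 9664 of the genes tested, matched on symbol and used only to mark Z- and W-linked genes. Python 3.11.15 with pandas 2.3.3 and matplotlib 3.10.9 made the summaries and plots. The procedure was tested on simulated data.

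Named genes are, in each direction, the first 10 agreeing genes by p that have a symbol, up to 3 genes per list with the smallest p, and GBP, BMP3, IL17RD, LAMA1, ABCC9, EPAS1, HIF1A, EGLN1 and VEGFA. Other list members in the text were picked for their role or p after their values were seen. The members, the gene lists and the rule were chosen with earlier results of these data known, so no list is independent support. Lists of liver, lung, skeletal muscle, conduction and epicardial genes, cell cycle, cholesterol synthesis, DNA repair and immediate early genes were measured as well, with 0 members passing adjustment. A few genes of the lists are not reported here by name.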

Additional observations from a re-analysis of the deposited data

How the results depend on the processing

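With all libraries 0 genes passed, and 0 passed with other pseudocounts, median ratio or quantile scaling, a mean of at least 5 RPKM, the 4 libraries alone, array weights, the W-linked covariate, voom, or leaving out Lhasa White 2 together with Chahua 2. The replicate number as a block also gave 0 calls and 835 genes at an unadjusted p under 0.05. Without the filter on low values 12 genes passed (10 higher, 2 lower), and without the variance trend 2 (1 higher, 1 lower). Leaving out 1 library gave 0 to 53 calls, 0 to 5 higher and 0 to 48 lower, with 53 (5 and 48) without Lhasa White 1 and 2 without Lhasa White 2. In the fit without Lhasa White 2, the 2 calls became 0 with a pseudocount of 0.1 or 0.5, 138 without the filter, 15 with a mean of at least 5 RPKM, 1 with median ratio scaling and 0 in voom (smallest adjusted p 0.239). Apart from the construction of these fits (genes admitted, libraries left out), the cause was not tested.

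Of 2639 values of the 121 named genes under the alternatives, 2610 kept their direction and their side of the threshold, 6 passed it, all without Lhasa White 1 (IRX4, PRRX1, COL5A2, TUBB3, GAP43 and FSTL1), and 23 reversed. Over the fits that leave out 1 library, IRX4 ran from -0.13 to 1.96, MYH15 from -0.26 to 1.42, APOA1 from -1.53 to 0.11 and HIF1A from -0.36 to 0.07, each reversed when Lhasa White 2 was left out. Leaving out Chahua 2 with it could not change these differences, since each breed has its own mean. The same genes reversed in voom without Lhasa White 2, which was added after the data were seen. NKX2-5 ran from -0.00 to 0.44, SLC4A1 from -1.49 to 0.01, HBE1 from -2.48 to 0.03, GFI1B from -0.90 to 0.20 and GJC1 from -0.53 to 0.11, each reversed without Linzhi Tibetan 1. LAMA1 ran from -0.31 to 0.08, reversed without Lhasa White 1 and without Linzhi Tibetan 2 (0.03), and came to 0.03 with quantile scaling. With the W-linked covariate APOA1 came to 0.15 and the 2 identifiers of HINTW to 0.23 and 0.69. The cause was not tested. With 2 libraries per breed the median standard error was 0.219 on the log2 scale, and 0.263 without Lhasa White 2.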
